A study of Mus musculus with 8 samples.

Results

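Igfbp2, Igfbp3, Igfbp4, Igfbp5, Igfbp6, Igfbp7, Ccn2, Thbs1 and Sparc encode secreted proteins that bind growth factors or the matrix around cells. The 9 genes were chosen by name with the signals of these same 8 arrays, and how those signals differ between the genotypes, already known. Their values are therefore a description, and no p-value is given for any of them. Every probe set that the platform annotation gives to 1 of these symbols was taken, which yielded 19 of the 22626 probe sets tested, for 9 of the 12393 genes with a probe set of their own. Another probe set, 1421811_at, is annotated to both Pald1 and Thbs1 and was kept apart.

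Insulin-like growth factors (IGFs) are secreted ligands that act through the receptor IGF1R, and IGF2R takes up IGF2 for degradation. The IGF binding proteins hold IGFs outside the cell and so control how much ligand reaches the receptor. IGFBP2 to IGFBP6 bind IGFs with high affinity, while IGFBP7 is a related protein that binds them weakly. Matricellular proteins are secreted into the matrix without being its scaffold. CCN2, also called connective tissue growth factor, thrombospondin 1 (Thbs1), which can activate latent TGF-beta, and SPARC, a collagen-binding glycoprotein, belong to this class.

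Messenger RNA of mouse embryonic stem cells was hybridized to 8 arrays, 2 for each of 4 genotypes. The groups were Ezh2-/-, Eed-/- and Jarid2-/- cells and wild type cells, all given the strain cj7 in the labels. All grew untreated in 15% fetal calf serum with leukemia inhibitory factor, the cytokine that keeps stem cells undifferentiated, at 1000 U/ml. EZH2 and EED are core subunits of Polycomb repressive complex 2 (PRC2), which methylates histone H3, and JARID2 is an accessory subunit. No label tells if both arrays of a genotype stem from separate cultures, or how many clones a mutant stands for. P-values therefore measure only the spread between these arrays, which may be technical, and an effect of the line and of the missing subunit cannot be told apart.

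Values are the deposited linear signal intensities of Affymetrix probe sets. Array medians lay between 323.6 and 352.4, and the signals of the 3 bacterial probe sets taken here as negative controls were 23.76 to 147.91. The targeted transcripts stood at 14.5% of wild type for Ezh2 in Ezh2-/- cells and at 35.2% for Eed in Eed-/- cells. Jarid2 was at 119% of wild type in arrays labelled Jarid2-/-. Since no label states which part of Jarid2 was deleted, this value does not check the genotype. All 12 pluripotency markers read above the negative controls in every group. Of the 12, 5 rose and 1 fell in Ezh2-/-, and 2 rose and 0 fell in Eed-/-. In arrays labelled Jarid2-/- 3 rose and 1 fell. Of all probe sets, 9.41% rose and 17.2% fell in Ezh2-/-, and 7.7% rose and 10.9% fell in Eed-/-. For the Jarid2-/- label 6.08% rose and 13.7% fell. These shares are the background for the other marker counts in this paragraph too. Klf4 rose in each mutant (log2 0.50, 0.94 and 0.87, limma adjusted p = 0.018, 0.0018 and 0.0018). Zfp42, the 1 that fell, had means of 3851 ± 195 in Ezh2-/-, 17959.9 ± 989.9 in Eed-/- and 3504 ± 313 in arrays labelled Jarid2-/-, against 18380.2 ± 532 in wild type (SD, n = 2 arrays each here and below). It fell in Ezh2-/- and in the arrays with the Jarid2-/- label (log2 -2.25 and -2.39, limma adjusted p = 2.4e-07 and 4.8e-07) and did not pass in Eed-/- (log2 -0.03). Markers of fibroblasts, which could enter a culture as feeder or differentiated cells, moved in part with the genotype. Of 23 measured, 0 rose and 12 fell in Ezh2-/-, and 1 rose and 6 fell in Eed-/-. In arrays labelled Jarid2-/- 0 rose and 11 fell. Dcn, Lum, Pdgfra, Thy1 and Lox passed in no mutant. The summed signal of 23 such markers was 8591 and 8737 in Ezh2-/-, 12312 and 18163 in Eed-/-, 7429 and 7295 in arrays labelled Jarid2-/-, and 27499 and 22825 in wild type. The largest parts of the wild type sums came from Vim, Tagln and Acta2 (means 10796, 4956 and 3419). No marker was at 0. Of these 23 markers 12, 11, 13 and 8 read on average at or below the highest negative control in the same order of groups. Col3a1, Col6a1, Dcn, Lum, Postn, Pdgfrb, Prrx1 and Fap did so in every group, wild type included. Primitive endoderm markers, 21 in all and again with none at 0, summed to 29103 and 27663 in Ezh2-/-, 25814 and 37629 in Eed-/-, 21377 and 23778 in arrays labelled Jarid2-/-, and 36865 and 31629 in wild type. Of these 21 markers 7, 3, 8 and 6 were at or below the highest negative control, in the same order of groups, with Afp and Plat among them in each group. The sums hide opposite moves, since 3 of the 21 rose and 8 fell in Ezh2-/-, 9 rose and 2 fell in Eed-/-, and 4 rose and 8 fell in arrays labelled Jarid2-/-. Krt8, a keratin gene, averaged 1117 ± 346 in Ezh2-/-, 6545 ± 4095 in Eed-/- and 1165 ± 47.1 in arrays labelled Jarid2-/-, against 10021 ± 3364 in wild type. Lama1, a laminin gene, averaged 3105 in Ezh2-/-, 1178 in Eed-/- and 1313 in arrays labelled Jarid2-/-, against 600.1 in wild type. Sox7 averaged 655 in Ezh2-/-, 319 in Eed-/- and 115 in arrays labelled Jarid2-/-, against 46.7 in wild type, where it did not exceed the negative controls. These marker genes are named after their values were seen. The part of other cell types in the values below was not tested, and in bulk RNA fewer cells of a type and less RNA per cell cannot be told apart.

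Promoters of 7 of the 9 genes were matched by symbol in RefSeq (GRCm38.p6), with 8 windows because Igfbp2 has 2 starts. Ccn2 and Thbs1 had no entry. The Igfbp3 and Igfbp4 windows lie inside the full annotated spans of these genes (chr11:7206086-7215498 and chr11:99040005-99052655). So does the second Igfbp2 window (chr1:72825137-72825386, in a span of chr1:72824480-72852474). These windows are therefore not upstream of the whole gene. Shown are the 250 bases before the annotated start of the 4 IGF binding protein genes with the clearest differences between groups or neighbours, and of Sparc, 5′ to 3′ on the strand of the gene, with each CpG in capitals.
Igfbp3 promoter, chr11:7213924-7214173, minus strand: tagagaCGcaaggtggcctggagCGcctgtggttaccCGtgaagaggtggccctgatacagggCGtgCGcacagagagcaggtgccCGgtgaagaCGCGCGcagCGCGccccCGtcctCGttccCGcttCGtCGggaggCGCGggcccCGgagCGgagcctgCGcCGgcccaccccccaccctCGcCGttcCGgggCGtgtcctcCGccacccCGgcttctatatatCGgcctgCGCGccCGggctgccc
Igfbp4 promoter, chr11:99040994-99041243, plus strand: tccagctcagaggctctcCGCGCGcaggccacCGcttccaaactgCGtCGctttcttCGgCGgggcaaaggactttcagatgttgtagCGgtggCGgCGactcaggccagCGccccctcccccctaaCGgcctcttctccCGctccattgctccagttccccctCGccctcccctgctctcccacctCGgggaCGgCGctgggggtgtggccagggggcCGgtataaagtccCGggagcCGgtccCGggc
Igfbp2 promoter, chr1:72824230-72824479, plus strand: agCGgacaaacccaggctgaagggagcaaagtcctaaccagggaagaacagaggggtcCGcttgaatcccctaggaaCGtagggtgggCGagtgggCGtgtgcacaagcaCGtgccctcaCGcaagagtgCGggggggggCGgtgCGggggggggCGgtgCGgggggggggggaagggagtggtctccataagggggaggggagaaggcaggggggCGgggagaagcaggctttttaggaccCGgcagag
Igfbp5 promoter, chr1:72874866-72875115, minus strand: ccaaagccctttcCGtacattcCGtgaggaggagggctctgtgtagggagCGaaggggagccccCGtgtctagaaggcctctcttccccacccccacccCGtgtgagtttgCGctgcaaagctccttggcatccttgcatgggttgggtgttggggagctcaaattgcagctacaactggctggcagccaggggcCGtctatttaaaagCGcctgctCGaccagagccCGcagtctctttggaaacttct
Sparc promoter, chr11:55420081-55420330, minus strand: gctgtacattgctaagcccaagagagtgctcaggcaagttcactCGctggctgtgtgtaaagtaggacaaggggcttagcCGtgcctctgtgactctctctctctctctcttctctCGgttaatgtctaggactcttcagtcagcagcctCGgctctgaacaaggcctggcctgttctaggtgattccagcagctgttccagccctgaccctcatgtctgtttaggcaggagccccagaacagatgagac

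CpG density is shown because PRC2 is known for binding CpG-rich promoters. The Igfbp3 window held 32 CpGs, more than 95.4% of the 32851 promoter windows in the table, whose median was 6. Igfbp4 held 22 CpGs, Igfbp7 26, the 2 Igfbp2 windows 14 and 11, Igfbp5 10 and Igfbp6 7. Sparc held 4, so the members were not alike in this respect. Motifs were searched on both strands, with a palindromic hit counted once. TATAAA stood 28 bases before the Igfbp4 start and, on the opposite strand, 148 bases before the Igfbp6 start, against a share of 12.4% of all windows. GGGCGG, the GC box, occurred 3 times in the first Igfbp2 window and 4 times in that of Igfbp7, and in 32.7% of all windows, and itself holds a CpG. CCAAT was found in the Igfbp6 window alone of these 8 (33.8% of all windows). TGANTCA, the AP-1 motif, was found in the second Igfbp2 window alone (6.75%), and GGAATG, the TEAD motif, in that of Igfbp5 alone (12.6%).

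Igfbp3, on chromosome 11, was far lower in each mutant than in wild type. Its single probe set, 1423062_at, read 385 and 333 in Ezh2-/-, 825 and 832 in Eed-/-, 547 and 545 in arrays labelled Jarid2-/-, and 6201 and 3157 in wild type. All 6 mutant arrays lay below both wild type arrays, and the mutant groups did not overlap each other. The means were 359 ± 36.7 in Ezh2-/-, 828 ± 4.98 in Eed-/- and 546 ± 1.75 in arrays labelled Jarid2-/-, against 4679 ± 2152 in wild type. Set against wild type, Igfbp3 was 13.0-fold lower in Ezh2-/- (log2 -3.57, SE 0.25), 5.65-fold lower in Eed-/- (log2 -2.40) and 8.57-fold lower in arrays labelled Jarid2-/- (log2 -2.98). The wild type arrays themselves differed by 1.96-fold, a larger gap than at 99.6% of probe sets with a mean signal above 500, while those of Eed-/- and those labelled Jarid2-/- differed by at most 1.01-fold. Igfbp1, the next gene 3.54 kb away with no annotated gene between, read 58.3 and 67.2 in Ezh2-/-, 50.4 and 44.6 in Eed-/-, 50.1 and 58.2 in arrays labelled Jarid2-/-, and 50.6 and 58.6 in wild type. In no group did Igfbp1 exceed the negative controls.

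Igfbp4, whose product is cut by the protease PAPP-A to free IGF, went different ways among the mutants. Its brightest of 6 probe sets, 1437405_a_at, read 171 and 161 in Ezh2-/-, 630 and 1590 in Eed-/-, 246 and 245 in arrays labelled Jarid2-/-, and 608 and 605 in wild type. Ezh2-/- and the arrays labelled Jarid2-/- lay below wild type, and Eed-/- lay above it, but 1 Eed-/- array only just. Igfbp4 was 3.65-fold lower in Ezh2-/- (log2 -1.77, SE 0.32) and 2.47-fold lower in arrays labelled Jarid2-/- (log2 -1.25). In Eed-/- it averaged 1110 ± 679 against 607 ± 1.93 in wild type (log2 0.71), and that difference was 0.05 without Eed-/- replicate 2 and 1.37 without Eed-/- replicate 1. The gap between the Eed-/- arrays was larger than at 99.9% of probe sets above 500.

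The 6 Igfbp4 probe sets correlated with each other over the 8 arrays between r = 0.55 and r = 1.00, a description over arrays that share genotypes. Those of the 6 with names ending in _s_at or _x_at may also match other transcripts. In Ezh2-/- all 6 lay below wild type, from log2 -1.77 to log2 -0.29, and in arrays labelled Jarid2-/- all 6 again, from log2 -1.25 to log2 -0.17. However, 1437406_x_at, 1423757_x_at, 1423756_s_at and 1421991_a_at did not exceed the negative controls in Ezh2-/-. Their ratios are only bounds, of at least 2.95-, 2.39-, 2.15- and 1.2-fold lower. For 1423756_s_at this held in arrays labelled Jarid2-/- too (at least 2.15-fold). Bounds here and below set the wild type mean, not its lower array, against the highest negative control. In Eed-/- the differences ran from -0.15 to 0.78, and 3 probe sets lay above wild type, 1 below it and 2 overlapped. The dimmest, 1421991_a_at, moved least, with a mean of 142 in Ezh2-/-, 158 in Eed-/-, 156 in arrays labelled Jarid2-/- and 177 in wild type.

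Igfbp2 was not lower than wild type in any mutant beyond the overlap of the arrays. Its probe set, 1454159_a_at, read 5477 and 5039 in Ezh2-/-, 8148 and 10136 in Eed-/-, 5977 and 7827 in arrays labelled Jarid2-/-, and 4829 and 6996 in wild type. The Eed-/- arrays lay above both wild type arrays (log2 0.64, SE 0.18), while Ezh2-/- (log2 -0.15) and the arrays labelled Jarid2-/- (log2 0.23) overlapped wild type. The Eed-/- call of Igfbp2 ended without wild type replicate 1 (log2 0.38) and without either Eed-/- array (log2 0.80 and 0.49). Leaving out either Ezh2-/- array ended it as well (log2 0.64 each). The same held with no intensity trend and when only Eed-/- and wild type were fitted. Igfbp5, the neighbour of Igfbp2 on chromosome 1 at a distance of 5.59 kb with no annotated gene between, had a pair of probe sets that disagreed. The brighter, 1422313_a_at, read 246 and 249 in Ezh2-/-, 394 and 416 in Eed-/-, 368 and 491 in arrays labelled Jarid2-/-, and 404 and 448 in wild type, so that Ezh2-/- alone lay apart (log2 -0.74, SE 0.13). The dimmer, 1452114_s_at, read 69.2 and 52.0 in Ezh2-/-, 79.0 and 114 in Eed-/-, 59.8 and 52.8 in arrays labelled Jarid2-/-, and 211 and 336 in wild type. There every mutant lay below wild type and no higher than the negative controls. The ratio is therefore only a bound, of at least 1.85-fold lower in both Ezh2-/- and the arrays labelled Jarid2-/-. In Eed-/- the dimmer probe set thus lay below wild type and Igfbp2 above it. The brighter Igfbp5 probe set overlapped wild type there (log2 -0.07), so no direction of Igfbp5 in Eed-/- can be read from the pair.

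Igfbp6, which prefers IGF2, and Igfbp7 differed from wild type by less than 2-fold at each probe set. Igfbp6 (1417933_at) read 184 and 187 in Ezh2-/-, 176 and 209 in Eed-/-, 159.7 and 161 in arrays labelled Jarid2-/-, and 156 and 172 in wild type. The first pair of mutants lay above wild type and the arrays labelled Jarid2-/- overlapped it, with differences of 0.16, 0.21 and -0.03 on the log2 scale (SE 0.11 each). The brightest Igfbp7 probe set by mean, 1423584_at, read 190.4 and 202 in Ezh2-/-, 272 and 339 in Eed-/-, 177 and 139.8 in arrays labelled Jarid2-/-, and 238 and 291 in wild type. Both Ezh2-/- and the arrays labelled Jarid2-/- lay below wild type there (log2 -0.39 and log2 -0.68, SE 0.15), and Eed-/- overlapped it. The other Igfbp7 probe sets differed from wild type by -0.22 to 0.12, and the 3 correlated with each other only between r = -0.53 and r = 0.25, so no level of the gene can be read from them together.

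Thbs1 showed the widest range of the matricellular genes. Its brighter probe set, 1460302_at, read 96.5 and 81.1 in Ezh2-/-, 403 and 797 in Eed-/-, 113 and 129 in arrays labelled Jarid2-/-, and 1756 and 771 in wild type. Ezh2-/- and the arrays labelled Jarid2-/- did not exceed the negative controls, and Eed-/- overlapped wild type. With the wild type mean set against the highest negative control, Thbs1 was at least 8.54-fold lower in both (measured means 88.8 in Ezh2-/-, 121 in arrays labelled Jarid2-/- and 1263 in wild type). The lower wild type array, at 771, would give a smaller bound. The dimmer probe set, 1450377_at, read 45.7 and 54.1 in Ezh2-/-, 135 and 287 in Eed-/-, 63.3 and 58.7 in arrays labelled Jarid2-/-, and 533 and 202 in wild type, with r = 0.99 between both probe sets over the 8 arrays. The shared probe set 1421811_at of Pald1 and Thbs1 read 233 and 175 in Ezh2-/-, 1649 and 3536 in Eed-/-, 323 and 383 in arrays labelled Jarid2-/-, and 6128 and 3117 in wild type. There too Ezh2-/- and the arrays labelled Jarid2-/- lay below wild type, and Eed-/- overlapped it.

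The size of the Thbs1 difference hung on single arrays. The wild type arrays differed by 2.28-fold and the Eed-/- arrays by 1.98-fold, gaps larger than at 99.8% of probe sets above 500 in each group. The fitted Ezh2-/- difference in measured signal of -3.50 on the log2 scale was -2.91 without wild type replicate 1 and -4.08 without wild type replicate 2, and that of -3.11 in arrays labelled Jarid2-/- was -2.52 and -3.69. In Eed-/- the difference of -1.02 was -0.43 and -1.60. At the dimmer probe set -2.39, -0.69 and -2.17 in Ezh2-/-, Eed-/- and the arrays labelled Jarid2-/- were -1.73, -0.02 and -1.5 without wild type replicate 1, and -3.06, -1.36 and -2.84 without wild type replicate 2.

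Sparc, on chromosome 11, was lowest in arrays labelled Jarid2-/-. Its 2 probe sets gave nearly the same signals. The brighter by mean, 1448392_at, read 5165 and 5354 in Ezh2-/-, 6335 and 7946 in Eed-/-, 3254 and 3031 in arrays labelled Jarid2-/-, and 7726 and 6835 in wild type. Eed-/- overlapped wild type, and the other mutant groups lay below it and apart from each other. Sparc was 2.32-fold lower in arrays labelled Jarid2-/- (log2 -1.21, SE 0.11) and 1.38-fold lower in Ezh2-/- (log2 -0.47), with log2 -0.03 in Eed-/-. The other probe set, 1416589_at, gave -1.31, -0.49 and -0.01 for the same comparisons. The Ezh2-/- call of 1448392_at ended without either Ezh2-/- array (log2 -0.44 and -0.49) and without wild type replicate 1 (log2 -0.38).

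Ccn2, on chromosome 10, followed a flatter course. Its probe set, 1416953_at, read 3558 and 2511 in Ezh2-/-, 3278 and 4300.0 in Eed-/-, 2367 and 2474 in arrays labelled Jarid2-/-, and 5251 and 4087 in wild type. The arrays labelled Jarid2-/- (log2 -0.93, SE 0.18) and Ezh2-/- (log2 -0.63) lay below wild type, and Eed-/- overlapped it (log2 -0.30). The Ezh2-/- arrays differed by 1.42-fold, nearly the 1.54-fold difference of the means. The Ezh2-/- call of Ccn2 ended without Ezh2-/- replicate 2 (log2 -0.38) and without wild type replicate 1 (log2 -0.45). It ended too with equal array medians (log2 -0.54) and with no intensity trend (log2 -0.63).

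**Figure D1:**
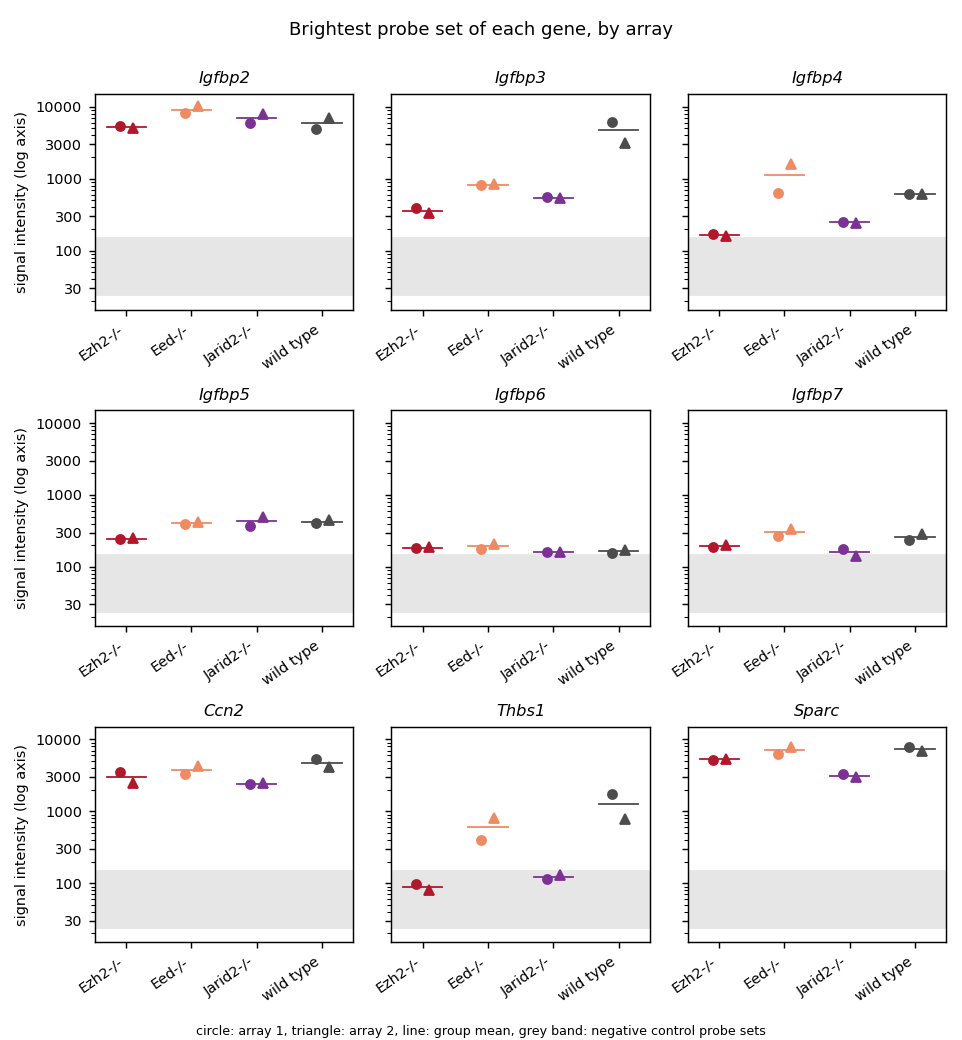
Signal intensity on a log axis at the brightest probe set of each of the 9 genes, with a circle for array 1, a triangle for array 2 and a line for the mean of each group, and a grey band from 23.76 to 147.91 for the negative controls. Igfbp3 is lower in all 6 mutant arrays, Thbs1 lies in the grey band in Ezh2-/- and the arrays labelled Jarid2-/-, and Igfbp4 is split between the Eed-/- arrays at 630 and 1590.

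Side by side, the members of Ezh2-/- and of the arrays labelled Jarid2-/- were mostly low and those of Eed-/- were mixed. The comparisons share the wild type arrays, so they are not independent of each other. In Ezh2-/- 15 of 19 probe sets had both arrays below both wild type arrays and 1 had both above, where 41.8% and 24.7% of all probe sets did. In Eed-/- 4 were below and 6 above (37.9% and 22.7% of all), and in arrays labelled Jarid2-/- 15 and 1 (38.7% and 19.2% of all). The limma fit put 12 of 19 past an adjusted p of 0.05 as lower in Ezh2-/- and 0 as higher, where it called 17.2% of all probe sets lower and 9.41% higher. In the arrays labelled Jarid2-/- it was again 12 lower and 0 higher (13.7% and 6.08% of all), and in Eed-/- 2 lower and 1 higher (10.9% and 7.7% of all). Since the genes were chosen with these signals known, nothing is read from these shares.

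The median log2 difference over the 19 probe sets was -0.63 in Ezh2-/-, -0.01 in Eed-/- and -0.95 in arrays labelled Jarid2-/-, where it was -0.07, -0.06 and -0.07 over all probe sets. The 12 calls in Ezh2-/- became 8 without Ezh2-/- replicate 2, and 8 to 13 over all arrays left out in turn. In Eed-/- the 3 calls became 6 without Eed-/- replicate 1 and 5 without wild type replicate 2. In the arrays labelled Jarid2-/- the 12 became 7 without Jarid2-/- replicate 2 and likewise without wild type replicate 2. The Igfbp4 probe set 1437405_a_at lost its call there without any 1 of the 4 arrays compared, though its difference stayed at -1.25. Between mutants, the brightest probe set of Igfbp4 differed by -2.48 on the log2 scale in Ezh2-/- against Eed-/- (SE 0.32), that of Igfbp3 by -1.18 and that of Ccn2 by -0.33 (SE 0.25 and 0.18).

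**Figure D2:**
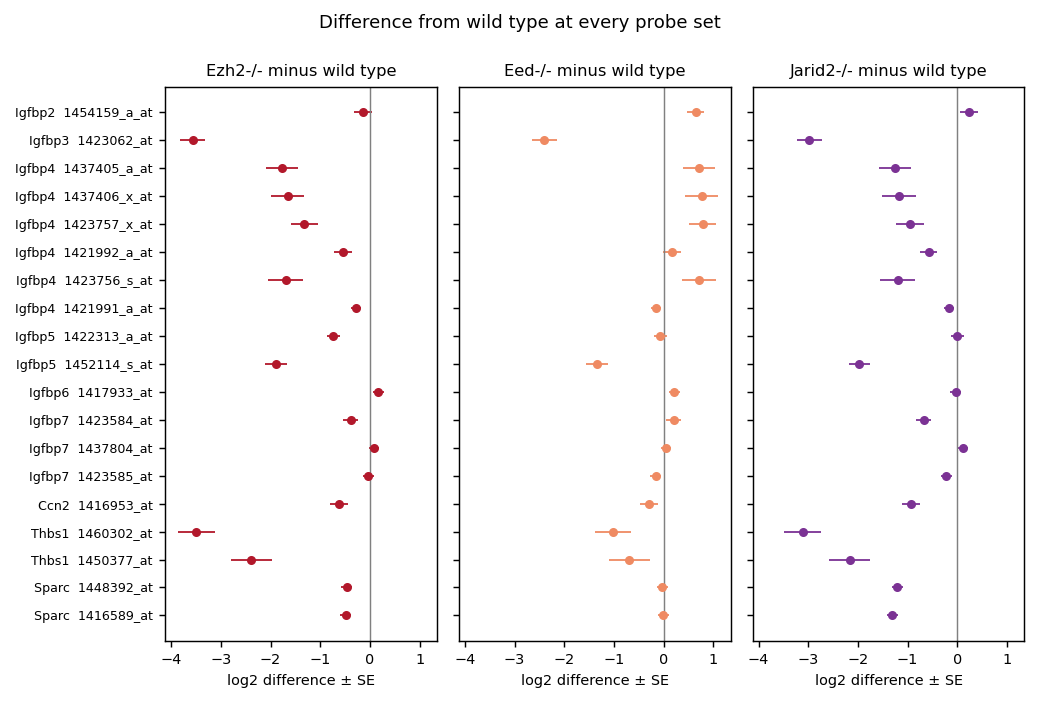
Log2 difference from wild type with the standard error of the linear model at each of the 19 probe sets, in a panel each for Ezh2-/-, Eed-/- and the arrays labelled Jarid2-/-. Igfbp3 is low in each panel (-3.57, -2.40 and -2.98), whereas all 6 Igfbp4 points are left of 0 in the outer panels and all but 1 right of it in Eed-/-.

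Several members also differed between the arrays of a genotype. In Eed-/-, array 2 was above array 1 by log2 1.32 for Igfbp4, 0.96 for Thbs1, 0.39 for Ccn2 and 0.33 for the Sparc probe set 1448392_at, and the summed fibroblast and primitive endoderm markers were higher in array 2 as well. The widest endoderm gaps in signal were at Krt8 (3649 and 9441) and Krt18 (2581 and 7450), while Sox7, Lama1, Apoe and Cubn were lower in array 2. In wild type, array 2 minus array 1 was -1.17 on the log2 scale for Thbs1, -0.97 for Igfbp3, -0.36 for Ccn2 and 0.53 for Igfbp2. The fibroblast sum was lower in wild type array 2 too, as were its largest parts, Vim, Tagln and Acta2. Other fibroblast markers were higher in wild type array 2, among them Col1a1 (432 and 548), Col1a2 (856 and 1471) and Mmp2 (638 and 1029). Igfbp4 differed by only -0.01 between the wild type arrays. Between the Ezh2-/- arrays Ccn2 differed by -0.50, more than at 99.7% of probe sets above 500.

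**Figure D3:**
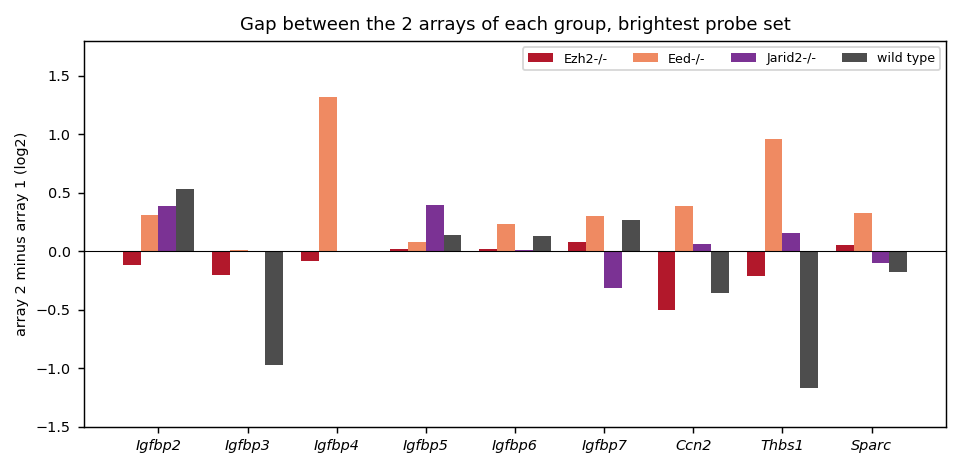
Signal of array 2 minus array 1 on the log2 scale, within each group, at the brightest probe set of each gene. The tallest bars are Igfbp4 in Eed-/- at 1.32, Thbs1 in wild type at -1.17, Igfbp3 in wild type at -0.97 and Thbs1 in Eed-/- at 0.96.

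For the 3 members whose brightest probe set varied by 4-fold or more between group means, the genes most alike over the 8 arrays were sought among 687 genes with a group mean above 500 and a range of at least 2-fold. Igfbp3 was most like Acta1, the skeletal muscle actin (Pearson r = 0.983 over 8 arrays), P3h4 (r = 0.973), which takes part in collagen modification, and the Wnt receptor gene Fzd2 (r = 0.971). Acta1 averaged 129.7 in Ezh2-/-, 336 in Eed-/-, 208 in arrays labelled Jarid2-/- and 1472 in wild type. Igfbp4 was most like the prion protein gene Prnp (r = 0.989), the chloride transporter gene Clcn5 (r = 0.984) and the myelin protein gene Pmp22 (r = 0.984). Pmp22 averaged 58.9 in Ezh2-/-, 931 in Eed-/-, 72.7 in arrays labelled Jarid2-/- and 505 in wild type. Thbs1 was most like Efemp1, a matrix glycoprotein gene (r = 0.994), the protease gene Prss23 (r = 0.993) and Flnc, a filamin gene (r = 0.991). Prss23 averaged 168 in Ezh2-/-, 1455 in Eed-/-, 281 in arrays labelled Jarid2-/- and 2751 in wild type. These values describe arrays that share 4 genotypes and carry no test.

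The other genes of the IGF axis were not members and were tested with limma over all probe sets. Of 20 measured, 2 rose and 4 fell in Ezh2-/-, 3 rose and 2 fell in Eed-/-, and 2 rose and 3 fell in arrays labelled Jarid2-/-, where 9.41% and 17.2%, 7.7% and 10.9%, and 6.08% and 13.7% of all probe sets did. The list medians were -0.10, -0.05 and -0.17 on the log2 scale, close to those of all probe sets. Like the lists further below, this list was chosen with earlier results of these data known. Apart from the ligands and receptors, genes were named from it by smallest p, so the printed p-values carry that selection. The ligand gene Igf2 read 553 and 354 in Ezh2-/-, 2319 and 6709 in Eed-/-, 278 and 227 in arrays labelled Jarid2-/-, and 1070.4 and 1238 in wild type at its brighter probe set. Igf2 rose in Eed-/- (log2 1.76, SE 0.41, limma adjusted p = 0.018) and fell in arrays labelled Jarid2-/- (log2 -2.13, limma adjusted p = 0.0072) and in Ezh2-/- (log2 -1.35, limma adjusted p = 0.038). The Eed-/- call ended without Eed-/- replicate 2 (log2 1.00) and without wild type replicate 1 (log2 1.66). The Ezh2-/- call ended without either Ezh2-/- array (log2 -1.66 without replicate 1 and -1.04 without replicate 2) and without either wild type array (log2 -1.45 and -1.24), as well as over the mean of its probe sets (log2 -0.68) and with no intensity trend (log2 -1.35, limma adjusted p = 0.064). The dimmer Igf2 probe set passed in none of the comparisons.

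Igf1, the other ligand gene, did not exceed the negative controls at its brighter probe set, with 115 and 104 in Ezh2-/-, 127 and 100.4 in Eed-/-, 97.7 and 93.3 in arrays labelled Jarid2-/-, and 101 and 112 in wild type. A dimmer Igf1 probe set, also no higher than the controls, passed in each comparison (log2 -0.38, -0.45 and -0.48, limma adjusted p = 0.036, 0.028 and 0.02). The receptor gene Igf1r averaged 340.2 in Ezh2-/-, 346 in Eed-/-, 325 in arrays labelled Jarid2-/- and 391 in wild type at its brighter probe set, with limma adjusted p = 0.27, 0.34 and 0.16. Its dimmer probe set was lower in Ezh2-/- (log2 -0.70, limma adjusted p = 0.0095). Igf2r averaged 1940.3 ± 100.3 in Eed-/- and 1212 ± 366 in wild type (log2 0.70, limma adjusted p = 0.052), and its other probe set passed (log2 0.86, limma adjusted p = 0.012). The brighter Igf2r probe set passed without wild type replicate 2 (log2 1.01), without either array labelled Jarid2-/- (log2 0.70), with equal array medians (log2 0.70), with a replicate block (log2 0.70) and over the mean of its probe sets (log2 0.78). In Ezh2-/- it passed without wild type replicate 1 (log2 -0.62, against -0.31 with all arrays). The insulin receptor gene Insr did not pass at its brighter probe set, while its dimmer one, no higher than the controls, passed in Ezh2-/- (log2 -0.36, limma adjusted p = 0.031).

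Downstream of the receptors, Irs1 and Irs2, adaptors that carry their signal, fell in Ezh2-/-. Irs1 read 89.4 and 84.2 in Ezh2-/-, 268 and 391 in Eed-/-, 204 and 335 in arrays labelled Jarid2-/-, and 649 and 495 in wild type. The Ezh2-/- signals did not exceed the negative controls, so Irs1 was at least 3.87-fold lower there, with a difference in measured signal of log2 -2.50 (limma adjusted p = 0.00015). The differences were log2 -1.07 in arrays labelled Jarid2-/- (limma adjusted p = 0.014) and log2 -0.78 in Eed-/- (limma adjusted p = 0.050), which missed the threshold narrowly and passed in 6 of the alternatives, among them without either array labelled Jarid2-/- (log2 -0.78). The call in arrays labelled Jarid2-/- ended without Jarid2-/- replicate 1 (log2 -0.73) and without wild type replicate 1 (log2 -0.88). Irs2 averaged 313 ± 6.50 in Ezh2-/- and 578 ± 168 in arrays labelled Jarid2-/-, against 1384 ± 343 in wild type (log2 -2.07 and -1.25, limma adjusted p = 0.00041 and 0.0068). Grb10, an adaptor that restrains these receptors, rose in all mutants, with means of 3574 ± 292 in Ezh2-/-, 8599 ± 495 in Eed-/- and 4361 ± 667 in arrays labelled Jarid2-/-, against 2152 ± 227 in wild type (log2 0.73, 1.99 and 1.01, limma adjusted p = 0.0024, 2.9e-05 and 0.00073). Htra1, a protease that can cleave IGF binding proteins, averaged 1936 ± 26.4 in Ezh2-/- and 1141 ± 143 in Eed-/- and rose in both, against 400.2 ± 59.6 in wild type (log2 2.24 and 1.48, limma adjusted p = 2.7e-05 and 0.00061). In the arrays labelled Jarid2-/- Htra1 read 373 and 280.3 (log2 -0.29, limma adjusted p = 0.23). Irs4 fell in Eed-/- (measured log2 -0.47, limma adjusted p = 0.018). Its Eed-/- signals of 143 and 119 did not exceed the controls, so the bound was at least 1.27-fold lower. The Irs4 call ended without Eed-/- replicate 2 (log2 -0.35) or either wild type array (log2 -0.47 each). It was also lost when only Eed-/- and wild type were fitted (limma adjusted p = 0.052).

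**Figure D4:**
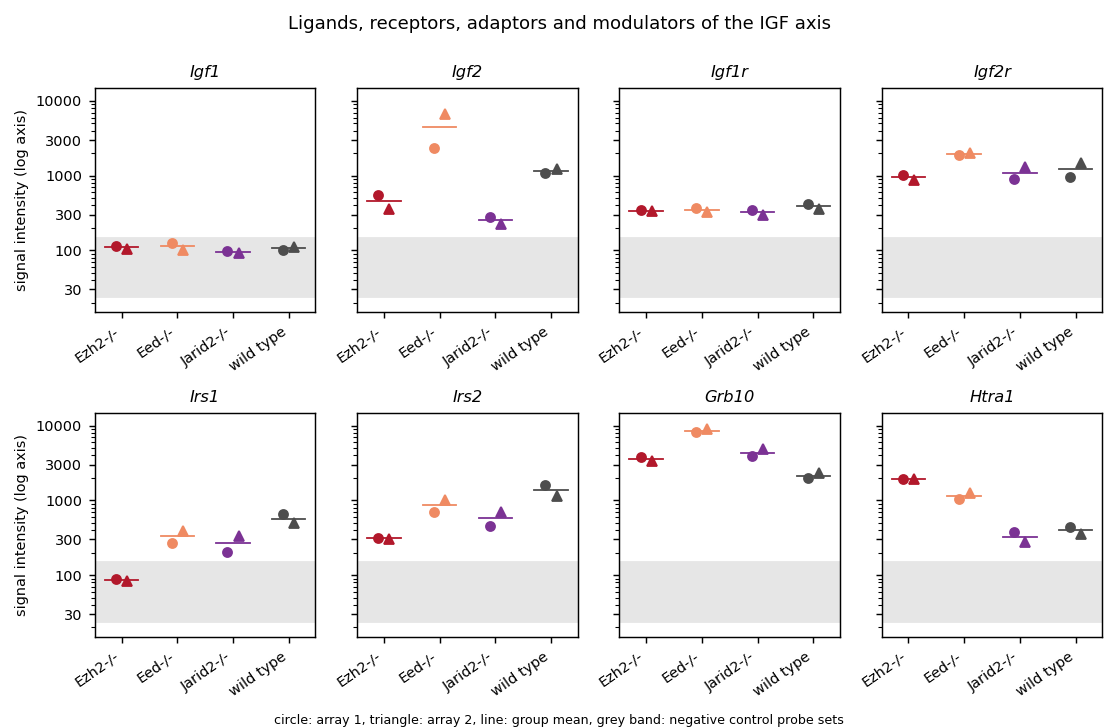
Signal intensity on a log axis of 8 other genes of the IGF axis at the brightest probe set, with a circle for array 1, a triangle for array 2, a line for the group mean and a grey band for the negative controls. Igf2 is highest in Eed-/- at 2319 and 6709, Irs1 lies in the grey band in Ezh2-/-, and Grb10 is above wild type in all 6 mutant arrays.

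Among 21 other matricellular genes, 0 rose and 7 fell in Ezh2-/-, 2 rose and 4 fell in Eed-/-, and 0 rose and 4 fell in arrays labelled Jarid2-/-, with list medians of -0.13, -0.15 and -0.23. The share of all probe sets that rose and fell was 9.41% and 17.2% in Ezh2-/-, 7.7% and 10.9% in Eed-/-, and 6.08% and 13.7% for the Jarid2-/- label, so the last count lies near it. Tnc, which encodes tenascin C, read 18.6 and 21.9 in Ezh2-/-, 49.6 and 104 in Eed-/-, 19.1 and 17.5 in arrays labelled Jarid2-/-, and 154 and 197 in wild type, where only wild type lay above the negative controls. Where a mutant does not exceed the controls only a bound can be given, which for Tnc was at least 1.18-fold lower, and the log2 differences are those of measured signals. Tnc fell in Ezh2-/- (log2 -2.39, limma adjusted p = 0.00023) and in arrays labelled Jarid2-/- (log2 -2.47, limma adjusted p = 0.00033). It also fell in Eed-/- (log2 -1.10, limma adjusted p = 0.016), where the call ended without Eed-/- replicate 1 (log2 -0.67) and without wild type replicate 2 (log2 -0.94). Ccn4, of the same family as Ccn2, averaged 94.7 in Ezh2-/-, 155 in Eed-/- and 86.7 in arrays labelled Jarid2-/-, against 391 in wild type (log2 -1.84, -1.22 and -1.95, limma adjusted p = 0.0005, 0.0064 and 0.00058). The bound for Ccn4 was at least 2.64-fold lower in both Ezh2-/- and the arrays labelled Jarid2-/-. Ccn1, the closest relative of Ccn2 and named here after its values were seen, read 609 and 456 in Ezh2-/-, 1906 and 3725 in Eed-/-, 820.0 and 1239.6 in arrays labelled Jarid2-/-, and 2564 and 1372 in wild type. Ccn1 fell in Ezh2-/- (log2 -1.80, limma adjusted p = 0.0068), a call that ended without Ezh2-/- replicate 2 (log2 -1.60). It did not pass in Eed-/- (log2 0.50) or in arrays labelled Jarid2-/- (log2 -0.89), though it passed there without wild type replicate 2 (log2 -1.33).

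Cd47, whose product is a cell-surface receptor for thrombospondin 1, averaged 130.5 ± 0.70 in Ezh2-/- and 353 ± 48.2 in wild type and fell (measured log2 -1.33, limma adjusted p = 0.00056), by at least 2.39-fold since the Ezh2-/- signals did not exceed the controls. It did not pass in Eed-/- (log2 -0.05) or in arrays labelled Jarid2-/- (log2 -0.44), where it passed without Jarid2-/- replicate 2 (log2 -0.66). Smoc1, which like Sparc encodes a secreted calcium-binding protein, fell in Ezh2-/- (log2 -0.73, limma adjusted p = 0.0014). Fstl1, a follistatin-like gene of the same family, averaged 3320.3 ± 655 in Eed-/- and 1656 ± 102 in wild type and rose (log2 0.98, limma adjusted p = 0.0061). Tgfbi, a matrix protein gene induced by TGF-beta, averaged 156 ± 35.4 in arrays labelled Jarid2-/- and 305 ± 2.86 in wild type and fell (log2 -0.91, limma adjusted p = 0.002). It also fell in Ezh2-/- (log2 -0.58, limma adjusted p = 0.012), a call that ended without either Ezh2-/- array (log2 -0.60 and -0.55). Tnxb fell in Ezh2-/- (measured log2 -0.42, limma adjusted p = 0.028) and in Eed-/- (log2 -0.62, limma adjusted p = 0.0083). It fell in arrays labelled Jarid2-/- too (log2 -0.53, limma adjusted p = 0.013). No mutant array exceeded the controls at Tnxb, nor did wild type replicate 1 (143). The bound was therefore only at least 1.06-fold lower in each mutant. The Ezh2-/- call ended without either Ezh2-/- array (log2 -0.43 and -0.40), without wild type replicate 2 (log2 -0.30), with equal array medians (log2 -0.33) and with quantile normalization (log2 -0.30). The Eed-/- call ended without Eed-/- replicate 2 (log2 -0.58), and the other without Jarid2-/- replicate 2 (log2 -0.45) or wild type replicate 2 (log2 -0.41).

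CCN2 and thrombospondin 1 are known targets of the YAP and TGF-beta pathways. Of 28 measured genes of these pathways, 2 rose and 9 fell in Ezh2-/-, 3 rose and 3 fell in Eed-/-, and 2 rose and 9 fell in arrays labelled Jarid2-/-, with list medians of -0.19, 0.00 and -0.25. Beside the shares of all probe sets just given, the Eed-/- counts are near the background. Tgfb2, a ligand gene, read 49.2 and 36.5 in Ezh2-/-, 148 and 351 in Eed-/-, 54.0 and 40.1 in arrays labelled Jarid2-/-, and 632 and 339 in wild type. It fell in Ezh2-/- and the arrays labelled Jarid2-/- (log2 -3.03 and -2.94, limma adjusted p = 0.00057 and 0.001), by at least 3.28-fold in both since neither exceeded the controls. In Eed-/- Tgfb2 did not pass (log2 -0.97, limma adjusted p = 0.098), but it did without Eed-/- replicate 2 (log2 -1.55) or wild type replicate 2 (log2 -1.40). Axl, a receptor gene, averaged 73.5 in Ezh2-/- and 50.9 in arrays labelled Jarid2-/-, against 191 in wild type. At this brighter probe set it fell in both (log2 -1.21 and -1.63, limma adjusted p = 0.0014 and 0.0005). The bound was at least 1.29-fold lower as neither exceeded the controls. The other Axl probe set did not share this direction in either comparison. The integrin gene Itgav, part of receptors that activate latent TGF-beta, fell in Ezh2-/- (log2 -0.92, limma adjusted p = 0.0016) and in arrays labelled Jarid2-/- (log2 -0.93, limma adjusted p = 0.0022). Over the mean of its probe sets the Itgav differences were log2 -0.36 and -0.28 and did not pass.

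The kinase gene Lats1, which restrains YAP, averaged 53.5 ± 7.73 in Ezh2-/-, 57.9 ± 0.28 in Eed-/- and 119.5 ± 17.2 in arrays labelled Jarid2-/-, against 214 ± 34.7 in wild type, and fell in all of them (log2 -1.72, -1.63 and -0.76, limma adjusted p = 7.8e-05, 0.00025 and 0.0071). None of the mutant arrays exceeded the negative controls, so the bound was at least 1.45-fold lower. Skil, an inhibitor of SMAD signalling, fell in Ezh2-/- (log2 -0.55, limma adjusted p = 0.00032), in Eed-/- (log2 -0.22, limma adjusted p = 0.032) and in arrays labelled Jarid2-/- (log2 -0.26, limma adjusted p = 0.016). The Eed-/- call ended without either Eed-/- array (log2 -0.23 and -0.22), either Ezh2-/- array (log2 -0.22 each) or wild type replicate 2 (log2 -0.18). It ended too over the mean of its probe sets (log2 -0.12). With no intensity trend, and when only Eed-/- and wild type were fitted, it was also lost (limma adjusted p = 0.095 and 0.086). The Skil call in arrays labelled Jarid2-/- ended without either of them (log2 -0.26 each) or wild type replicate 2 (log2 -0.22). It ended too over the mean of its probe sets (log2 -0.21). Equal array medians, no intensity trend and a fit of only those arrays and wild type ended it as well (limma adjusted p = 0.052, 0.059 and 0.061). Ltbp1, which tethers latent TGF-beta, fell in Ezh2-/- (measured log2 -0.94, limma adjusted p = 0.00066). The bound for Ltbp1 was at least 1.54-fold lower, since Ezh2-/- did not exceed the controls. Smad7, an inhibitor and target of TGF-beta signalling, averaged 2873 in Ezh2-/-, 3842 ± 294 in Eed-/- and 2419 in arrays labelled Jarid2-/-, against 1762 ± 76.7 in wild type, and rose in each (log2 0.69, 1.12 and 0.45, limma adjusted p = 0.0023, 0.00042 and 0.021). The call in arrays labelled Jarid2-/- ended without either of them (log2 0.44 and 0.47) and without wild type replicate 1 (log2 0.41). The receptor gene Tgfbr1 rose in Eed-/- (log2 0.52, limma adjusted p = 0.0085), a call that ended without Eed-/- replicate 2 (log2 0.43) and over the mean of its probe sets (log2 0.01). It fell in arrays labelled Jarid2-/- (log2 -0.46, limma adjusted p = 0.011), a call that ended when only those arrays and wild type were fitted (limma adjusted p = 0.061). Tgfbr3 fell in Eed-/- (measured log2 -0.49, limma adjusted p = 0.028). That call ended without Eed-/- replicate 2 (log2 -0.34) or wild type replicate 1 (log2 -0.48) or 2 (log2 -0.51). It ended too with quantile normalization (log2 -0.36) and when only Eed-/- and wild type were fitted (limma adjusted p = 0.063). No group exceeded the negative controls at Tgfbr3. Yap1 itself was not among the genes past the threshold in any of the comparisons (log2 -0.09, 0.04 and 0.09).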

How the data were processed

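Per the labels' protocols, total RNA was taken with Trizol, turned into biotin cRNA and hybridized to Affymetrix 3′ arrays. The deposited value table holds linear intensity per probe set, and how the authors normalized it is not stated in the labels. A second deposited table, of dChip signals per the file headers, has 12 columns that no label names, and it was not used.

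After 64 control probe sets were left out, values were floored at 1, 16 was added and log2 was taken. For all 22626 probe sets, limma 3.58.1 under R 4.3.3 estimated group means from the 8 arrays (lmFit, then eBayes, trend on), with 4 residual and 5.02 prior degrees of freedom. Two-sided p-values got the Benjamini-Hochberg adjustment across the whole array within each of the 3 comparisons with wild type, with a threshold of 0.05. The fit was tested on simulated data. Gene symbols are those of the platform annotation (20380 probe sets with 1 symbol, 691 with several, 1555 with none), and the brightest probe set stood for a gene outside the members. The members and lists were chosen with earlier results of these data known. Named from each list were up to 4 genes with the smallest p past the threshold per comparison, and the IGF ligands, receptors and Igfbp1. The number of arrays limits the precision. The alternatives tried are given in the closing section.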

Additional observations from a re-analysis of the deposited data

How the results depend on the processing

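Each array was left out in turn, and the alternatives were offsets of 1 and 64, quantile normalization, a filter on dim probe sets, equal array medians, eBayes without the trend, fits of only the 2 groups compared, a replicate block and, for list genes, averaging a gene's probe sets. No call reversed its sign. Member calls ranged from 8 to 13 in Ezh2-/-, from 2 to 6 in Eed-/- and from 7 to 13 for Jarid2-/- labels with 1 array left out, where the full set gave 12, 3 and 12. Over the 41 other IGF axis and matricellular genes the counts of 13, 11 and 9 ranged from 8 (without Ezh2-/- replicate 2) to 14, 5 (without Eed-/- replicate 2; 7 without Eed-/- replicate 1) to 15 and 8 to 10. The filter on dim probe sets, which tests fewer of them, gave 6 of these in Eed-/- and 5 in arrays with the Jarid2-/- label. With a replicate block the member counts were 13, 3 and 13 and the others 14, 15 and 13. The labels do not say that a number marks a shared culture, and the deviations of same-numbered arrays correlated between 0.008 and 0.411. Over 1650 combinations of a named list or marker gene, a comparison and an alternative, 57 lost a call and 27 gained one. Signals of Igfbp6, the Igfbp7 probe set 1423585_at, Igf1 and, in Ezh2-/-, most Igfbp4 probe sets lie near or within the negative controls, which limits what their differences show.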
